A study of Mus musculus with 16 samples.

Results

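Organoids of mouse endometrial epithelium with a conditional knockout (cKO) of Tgfbr2, the gene of the type II TGF-beta receptor, were compared with control organoids under vehicle, with no hormone added. The comparison used 8 of the 16 RNA-seq libraries of the study: M1 to M4, labelled control (Tgfbr2 FF), and M5 to M8, labelled Tgfbr2 cKO (Tgfbr2 PRcre+), both treated with vehicle. The members were all libraries whose titles name vehicle, and no measured value decided which libraries were included. The comparison itself was chosen with earlier results of these data known. Organoids are small hollow structures that epithelial cells form in culture, here from the lining of the uterus. They were cultured for 2 days, given vehicle for 6 days and then collected. The other 8 libraries, which entered the fits and so helped set every SE, p and stromal slope, had the same 2 genotypes in 4 libraries each (control M9 to M12, cKO M13 to M16). Those organoids were first given estradiol (E2) at 10 nM for 2 days, then for 4 days the same 10 nM E2 together with medroxyprogesterone acetate (MPA), a progestin, at 1 µM.

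By the labels, the control groups carry the floxed Tgfbr2 allele without a named Cre, and the cKO groups carry PR-Cre, a recombinase made in cells that express the progesterone receptor. Cre and the loss of Tgfbr2 therefore came together and cannot be told apart, and epithelial cells that never made Cre would keep the receptor. The labels give neither strain nor age, and do not say whether libraries came from separate mice. The p-values therefore reflect only how these samples vary among themselves, and that variation may be technical. In RNA from whole cultures, fewer cells of a type and less RNA per cell cannot be told apart.

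TGF-beta ligands bind TGFBR2, which recruits and phosphorylates TGFBR1. The active receptor pair phosphorylates SMAD2 and SMAD3, which enter the nucleus with SMAD4 and bind target genes, often at short CAGAC motifs. In many epithelia the pathway restrains division, raises matrix genes and takes part in epithelial-mesenchymal transition. Activins use other receptors and the same SMAD2 and SMAD3, and BMPs use SMAD1 and SMAD5. In the uterus, TGF-beta family signals act in both epithelium and stroma, and progesterone receptor in epithelium and stroma controls the response to progestin.

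The authors deposited normalized read counts, that is reads per gene divided by a size factor for the library, and all levels below are on that scale. These values are not divided by gene length, so levels were compared between libraries and not between genes. Recovered depth was 14377987 to 20016836 reads in the 8 vehicle libraries. Differences are log2 fold changes, cKO minus control, of log2(value + 1), with a standard error (SE) from a limma fit to all 16 libraries and a Benjamini-Hochberg adjusted p over the 16509 genes tested. The threshold was an adjusted p of 0.05. The 2 groups are said not to overlap when all 4 values of one exceed all 4 of the other.

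Few genes passed a test for genotype under vehicle, and the number depended on the fit and on the libraries used. With 4 libraries a group, a lack of calls does not show a lack of differences. Among genes without overlap between the groups, most differences were small. No gene passed the test across all genes as the libraries stand. With the stromal content of each library as a covariate, 8 genes passed: Lpgat1, Ifi202b, Fst, Col4a3 and Cldn6 fell in cKO, and Vps37b, Lypd5 and Zfand2a rose. That fit used all 16 libraries, and in the vehicle libraries alone only Lpgat1 passed. The genes of the TGF-beta pathway and its SMAD targets had medians near 0 in that fit, with Fst, the activin antagonist, the 1 pathway relative that passed. Antigen presentation genes had mostly positive and cell cycle genes mostly negative log2 fold changes, none of which passed on its own, and the cell cycle pattern depended on M8 and on the covariates.

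Libraries differed within both groups in transcripts of stromal cells, the connective tissue beneath the epithelium. The mean of log2(value + 1) over 20 stromal markers (fibroblast collagens, Dcn, Lum, Pdgfra and others) was 7.49, 5.24, 4.11 and 9.43 in M1 to M4, and 5.15, 5.28, 5.09 and 8.47 in M5 to M8. M4, M8 and M1 were thus the high libraries, and each genotype held both high and low ones. The stromal markers made up 0.00722% to 0.499% of the summed signal in control and 0.0160% to 0.220% in cKO. The stromal mean was 6.57 ± 2.37 (SD, n = 4) in control and 6.00 ± 1.65 in cKO, a difference of -0.57 with an exact two-sided permutation p of 0.80. Among 4 against 4 libraries that test cannot give a p below 0.0286, and the p adjusted over 7 marker lists was 0.80. The difference was 0.38 without M4.

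The labelled cell type was checked on its markers, which were high in every library. The mean over 20 epithelial markers (Epcam, Cdh1, Krt7, Krt8 and others) was 12.38 ± 0.03 (SD, n = 4) in control and 12.46 ± 0.03 in cKO, with no overlap (exact permutation p = 0.0286, adjusted over the 7 lists p = 0.20). Leukocyte markers averaged 9.05 in M4 and between 5.65 and 7.12 in the other vehicle libraries. Smooth muscle markers averaged 6.38 in M4, 5.58 in M8 and 3.45 to 4.26 elsewhere, and endothelial markers 4.86 in M4 and 3.48 to 4.27 elsewhere. Mesothelial, ciliated cell and nerve markers were at 3.19 to 5.57, 1.79 to 3.00 and 2.53 to 3.35. These means of log values thus stood highest in M4, a control library, for stroma, smooth muscle and leukocytes. By summed signal the leukocyte markers were not highest there, with 0.127% of the total in M4, 0.118% to 0.217% in the other controls and 0.0731% to 0.197% in cKO.

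**Figure D1:**
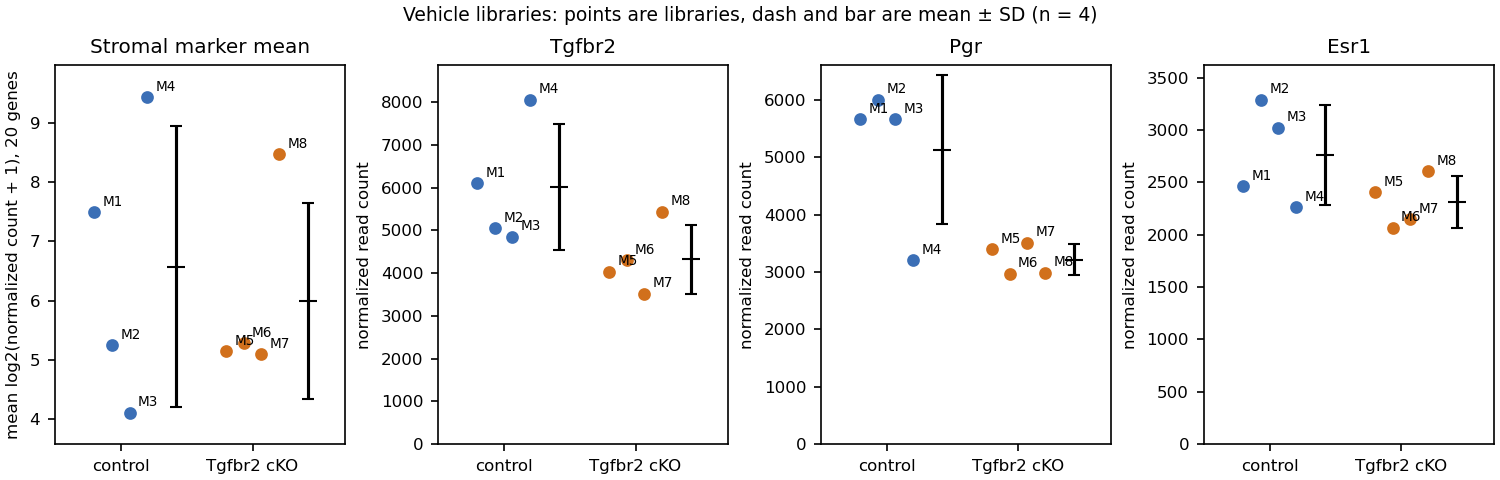
Each point is 1 vehicle library, with the mean ± SD (n = 4) of its group at the right as a dash and bar. The left panel plots the stromal marker mean on a log2 scale, where M4, M1 and M8 stand high, and the other panels plot normalized read counts of Tgfbr2, Pgr and Esr1, in all of which the groups overlap.

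Tgfbr2, the targeted gene, checks the labels. Its normalized read count was 6101, 5047, 4852 and 8054 in M1 to M4 and 4035, 4304, 3520.1 and 5439 in M5 to M8. Group means were 6014 ± 1467 in control and 4325 ± 811 in cKO (SD, n = 4), so the cKO mean was 71.9% of control. The 3 lowest libraries were cKO and the highest was the control M4, but the groups overlapped through M8. The difference did not pass the threshold (log2 fold change -0.46, SE 0.21, adjusted p = 0.833). Tgfbr2 followed the stromal mean with a slope of 0.15 log2 units per unit (adjusted p = 4.99e-06). With the stromal mean as a covariate, the Tgfbr2 difference was -0.38 with an SE of 0.08 (adjusted p = 0.170). A gene-level count also takes reads from exons that recombination leaves in place, and the floxed exons are not named in the labels, so this count checks the deletion only in part.

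Pgr encodes the progesterone receptor, whose promoter activity also marks the cells meant to make Cre. Its counts were 5666, 6002, 5663 and 3205 in M1 to M4 and 3396, 2974, 3511 and 2989 in M5 to M8. M1 to M3 stood together well above all cKO libraries, and M4 alone fell among them. The difference did not pass (log2 fold change -0.64, SE 0.19, adjusted p = 0.779), and the value with the stromal covariate was -0.70 (SE 0.13, adjusted p = 0.0929). Without M4 the covariate value was -0.82 (adjusted p = 0.0265), and with leukocyte markers as a further covariate -0.83 (adjusted p = 3.06e-04), so whether Pgr passed depended on M4 and on the covariates. The widely used PR-Cre line carries Cre inside the Pgr gene. The labels do not say which line was used, and the share of the Pgr difference that goes with the Cre allele was not tested. Esr1, the estrogen receptor, had counts of 2461, 3288, 3023 and 2266 in M1 to M4 and 2409, 2067, 2146 and 2608 in M5 to M8. Its groups overlapped (log2 fold change -0.25, SE 0.15, adjusted p = 0.861).

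Across all genes, the limma fit without a covariate called 0 of 16509 genes (0.00%). An unadjusted p under 0.05 was reached by 984 genes (5.96%), 534 higher in cKO (3.23%) and 450 lower (2.73%). edgeR's quasi-likelihood test on the recovered reads also called 0, with 973 genes at an unadjusted p under 0.05, and DESeq2 called 14, among them Ifi202b, Lpgat1, Vps37b, Cldn6 and B2m. The smallest adjusted p in limma was 0.0628, shared by Ifi202b and Vps37b. The median log2 fold change was 0.001 over all tested genes. Groups did not overlap in 497 genes (3.01%), 271 higher in cKO (1.64%) and 226 lower (1.37%). Most of these differences were small, with a median absolute log2 fold change of 0.30, and 12 higher and 38 lower genes passed 1. Without M1, M4 and M8 the fit called 4 genes.

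The surroundings of the 2 loci were checked too, with gene positions used only to find neighbours. Of 62 tested genes within 5 Mb of Tgfbr2, 1 gene (Gm9385) was higher in cKO without overlap (1.64% over all genes) and 3 (Azi2, Epm2aip1 and Exog) were lower (1.37% over all genes). Around Pgr, 36 genes were tested and 1, Cep126, was lower in cKO without overlap. An unadjusted p under 0.05 was reached by 4 of the 62 genes and 5 of the 36, against 5.96% of all genes. None of these neighbours had an adjusted p under 0.05 with or without the covariate.

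The 10 genes higher in cKO with the lowest p among those without overlap differed by 1.16 to 1.37 times, and none passed the adjusted threshold. Vps37b encodes a subunit of ESCRT-I, which sorts ubiquitinated membrane proteins toward the lysosome. Its counts were 632, 639, 646 and 608 in M1 to M4 and 847, 850.1, 856 and 758 in M5 to M8, with the 4 controls within a narrow range of each other and every cKO library above them (log2 fold change 0.39, SE 0.06, adjusted p = 0.0628). Zfand2a encodes a stress-inducible protein that binds the proteasome. It had 969, 944, 999 and 809 in M1 to M4 and 1269, 1345, 1322 and 1080.0 in M5 to M8, where M8, the cKO library with high stroma, was the lowest of its group (log2 fold change 0.43, SE 0.09, adjusted p = 0.512). Dnajb2, an HSP40 co-chaperone, had 1089, 975, 999.9 and 1125 in M1 to M4 and 1282, 1178, 1254 and 1175 in M5 to M8 (log2 fold change 0.22, SE 0.06, adjusted p = 0.765).

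Of the others, Hpcal1 encodes a neuronal calcium sensor protein and had counts of 1353, 1219, 1397 and 1326 in M1 to M4 and 1689, 1719, 1671 and 1510.0 in M5 to M8 (log2 fold change 0.32, SE 0.06, adjusted p = 0.399). Rcan3, a regulator of calcineurin, had 1306, 922, 1047 and 1024 in M1 to M4 and 1645, 1363, 1426 and 1364 in M5 to M8, with M1 the highest control close under the cKO libraries (log2 fold change 0.44, SE 0.11, adjusted p = 0.765). Lpar2, a receptor for lysophosphatidic acid, had 332, 259.6, 266 and 299 in M1 to M4 and 426, 356, 385 and 415 in M5 to M8 (log2 fold change 0.45, SE 0.11, adjusted p = 0.765). Tyk2 is a Janus kinase used by interferon and interleukin receptors, and it had 1219, 1111, 1092 and 1186 in M1 to M4 and 1396, 1308, 1328 and 1313 in M5 to M8 (log2 fold change 0.22, SE 0.05, adjusted p = 0.765). Fam83g binds SMAD1 and casein kinase 1, and its counts were 445, 436, 440.2 and 497 in M1 to M4 and 572, 584, 560.1 and 504 in M5 to M8. M4 and M8 were the closest pair in Fam83g, only a few counts apart (log2 fold change 0.29, SE 0.07, adjusted p = 0.765). Slc25a30, a mitochondrial carrier, had 561, 491, 597 and 548 in M1 to M4 and 718, 662, 687 and 641 in M5 to M8 (log2 fold change 0.30, SE 0.07, adjusted p = 0.673). B2m is described with antigen presentation below.

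Among the 10 genes lower in cKO without overlap, the differences were larger and were largest in Ifi202b. Ifi202b encodes an interferon-inducible DNA-binding protein of the AIM2-like family, and its expression is known to differ between inbred mouse strains. Its counts were 616, 166, 576 and 249.5 in M1 to M4 and 32.5, 35.3, 21.5 and 51.0 in M5 to M8, so the lowest control, M2, stood well above the highest cKO library, M8 (log2 fold change -3.34, SE 0.47, adjusted p = 0.0628). H60c encodes a ligand of the NKG2D receptor of natural killer cells. It had 109, 257, 206 and 361 in M1 to M4 and 38.1, 74.8, 35.0 and 80.3 in M5 to M8, with M1 the lowest control (log2 fold change -1.98, SE 0.41, adjusted p = 0.512). Col4a4, a chain of basement membrane collagen IV, had 40.1, 57.6, 82.6 and 39.2 in M1 to M4 and 10.1, 17.6, 19.2 and 20.9 in M5 to M8, low in every library (log2 fold change -1.62, SE 0.38, adjusted p = 0.765). Cldn6, a tight junction claudin of embryonic and simple epithelia, had 868, 831, 957 and 1729.9 in M1 to M4 and 452, 540.1, 468 and 670.1 in M5 to M8. M4 was far above the other controls in Cldn6, and M8 was the highest cKO library (log2 fold change -0.99, SE 0.23, adjusted p = 0.765).

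Lpgat1, an acyltransferase that remodels phospholipids, had 4164, 3398, 3495 and 4699 in M1 to M4 and 2091, 2207, 2348 and 2932 in M5 to M8. Its values were highest in the stroma-rich libraries of each group, and no cKO library reached the lowest control (log2 fold change -0.72, SE 0.13, adjusted p = 0.296). Rps6kb1, the S6 kinase downstream of mTOR, had 657, 734, 641 and 619.8 in M1 to M4 and 451, 521, 529 and 586 in M5 to M8 (log2 fold change -0.35, SE 0.08, adjusted p = 0.673). Atr, the kinase that senses stalled replication, had 374, 426, 399 and 356 in M1 to M4 and 245, 277, 305 and 300.3 in M5 to M8 (log2 fold change -0.46, SE 0.12, adjusted p = 0.777). Hoxb9, a homeobox gene, had 235, 248, 196 and 330.3 in M1 to M4 and 156, 155, 159 and 151 in M5 to M8, nearly constant among the cKO libraries (log2 fold change -0.67, SE 0.17, adjusted p = 0.765). Map3k15, a stress-activated kinase, had 90.9, 114, 82.6 and 108 in M1 to M4 and 60.6, 54.6, 56.5 and 74.5 in M5 to M8 (log2 fold change -0.67, SE 0.18, adjusted p = 0.777). Pign, an enzyme of GPI anchor synthesis, had 897, 1026, 897 and 889 in M1 to M4 and 742, 760.2, 679 and 802 in M5 to M8, with M2 the highest control (log2 fold change -0.31, SE 0.07, adjusted p = 0.549).

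**Figure D2:**
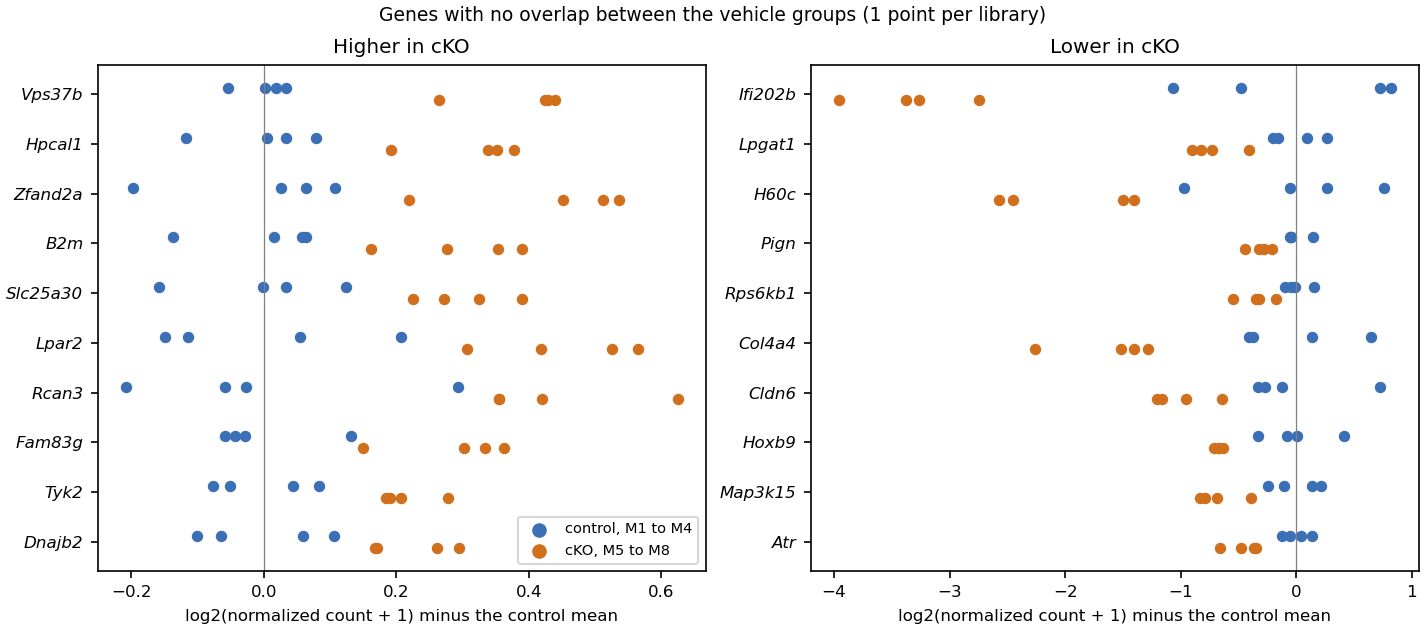
Each point is 1 vehicle library, plotted as log2(normalized count + 1) minus the control mean of that gene, with control in blue and cKO in orange. By the rule that chose the 20 genes the groups never overlap; the axis of the left panel spans less than that of the right, since the genes higher in cKO differed by 0.22 to 0.45 and the genes lower in cKO by -0.31 to -3.34 on the log2 scale.

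The same genotype difference was measured in the 8 hormone-treated libraries. Their values were in the fit whose p chose these 20 genes, through its estimate of the spread, so they are no independent check. All 20 had the same sign there, and 14 again did not overlap (8 of the 10 higher and 6 of the 10 lower). For comparison, 68.3% of all tested genes had the same sign, and under E2/MPA 3.82% of all genes were higher and 2.35% lower without overlap (6.17% in either direction). Of the 497 genes without overlap under vehicle, 104 (20.9%) did not overlap in the same direction under E2/MPA. They were 79 of the 271 higher (29.2%) and 25 of the 226 lower (11.1%), and 2 genes were without overlap in opposite directions. Libraries with numbers 8 apart (M1 and M9, and so on) deviated together, with an estimated correlation of 0.496 in the fit and 0.220 with the stromal covariate. The labels do not say whether such libraries share a culture or animal, so the hormone-treated libraries may not be independent of the vehicle ones. No gene passed a test of the difference between the genotype effects under the 2 treatments (limma, 309 genes at an unadjusted p under 0.05).

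Ifi202b had 578, 157, 451 and 183 in M9 to M12 and 65.4, 34.3, 36.5 and 44.1 in M13 to M16 under E2/MPA (log2 fold change -2.73), and Vps37b had 690.1, 724, 698 and 675 in M9 to M12 and 861, 787, 838 and 889 in M13 to M16 (log2 fold change 0.27). Neither overlapped. B2m (0.12) and Rps6kb1 (-0.10) differed less there and overlapped.

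Because stromal transcripts varied within both groups, genotypes were also compared at an equal stromal level, with the stromal mean as a covariate. Its slope was called in 6245 genes (37.8%), 3258 rising and 2987 falling with the stromal mean. The covariate lowered the median SE of the genotype difference from 0.18 to 0.14, and the SE was smaller in 13861 genes (84.0%). With it, 8 genes were called (0.0485%) in the fit to all 16 libraries. In the 8 vehicle libraries alone, 1 of the 8, Lpgat1, was called (adjusted p = 0.0428), and the other 7 had adjusted p of 0.129 to 0.310. Of these, 5 were lower in cKO (0.0303%), Lpgat1, Ifi202b, Fst, Col4a3 and Cldn6, and 3 higher (0.0182%), Vps37b, Lypd5 and Zfand2a. At an unadjusted p under 0.05 there were 1871 genes (11.3%), 1008 higher (6.11%) and 863 lower (5.23%). Of the 8 called genes, 7 did not overlap without any adjustment (3.01% over all genes), and all 8 had no overlap in the same direction under E2/MPA (6.17% over all genes in either direction), in libraries that the fit also used. The 8 were chosen by their genotype p in the same vehicle libraries, so their lack of overlap there is no separate evidence. Lypd5 and Col4a3 have a mean below 50 in the higher group and were singled out after their values were seen.

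**Figure D3:**
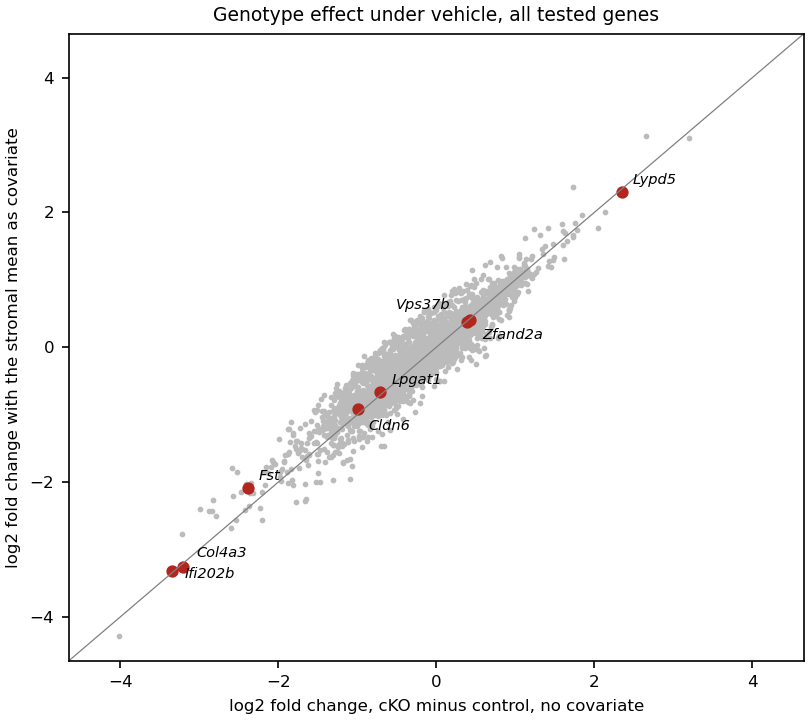
Each grey point is 1 of the 16509 tested genes, with its log2 fold change (cKO minus control) without a covariate on the x axis and with the stromal mean as covariate on the y axis, and red points are the 8 genes called with it. The 8 lie near the diagonal line of equality, and Fst moves from -2.38 to -2.09.

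Lpgat1 fell by 0.66 on the log2 scale at an equal stromal level (SE 0.06, adjusted p = 4.55e-04), 0.631 times the control level. It was the only gene called in every repeat that left out 1 of the 16 libraries. Single vehicle libraries ended the other calls: M3, M5, M6 or M7 for Ifi202b, any 1 of M2 to M7 for Vps37b, Fst and Zfand2a, M2, M3, M5, M6 or M7 for Lypd5, and any 1 of M2 to M8 for Cldn6 and Col4a3. Single hormone-treated libraries, which share the fit, also ended the calls of Zfand2a (M9 to M12, M14 or M16), Cldn6 (M10, M11 or any 1 of M13 to M16) and Col4a3 (any 1 of M9 to M13, or M15). In each of these repeats the genes kept their direction, and their highest adjusted p over all alternatives was 0.310 or less. Cldn6 also fell (log2 fold change -0.91, SE 0.15, adjusted p = 0.0455), and so did Ifi202b (log2 fold change -3.32, SE 0.47, adjusted p = 0.0252). Vps37b rose (log2 fold change 0.38, SE 0.06, adjusted p = 0.0252), as did Zfand2a (log2 fold change 0.40, SE 0.06, adjusted p = 0.0434).

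Fst encodes follistatin, a secreted protein that binds and blocks activin and a known progestin-responsive gene of the uterus. Its counts were 1273, 726, 801 and 3188 in M1 to M4 and 137, 134, 152 and 1130.2 in M5 to M8. M5 to M7 were far below every control, and M8, the cKO library with high stroma, lay inside the control range. Fst followed the stromal mean with a slope of 0.50 log2 units per unit (adjusted p = 2.04e-05). Without the covariate it did not pass (log2 fold change -2.38, SE 0.71, adjusted p = 0.779), and with it Fst fell (log2 fold change -2.09, SE 0.31, adjusted p = 0.0252). Without M4 the covariate value was -2.12 (adjusted p = 0.0714), and without M4 and M8 -2.50 (adjusted p = 0.00181). Under E2/MPA the counts were 327, 226, 198 and 938 in M9 to M12 and 44.0, 71.3, 53.6 and 174 in M13 to M16, with no overlap.

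Lypd5 encodes a small cell-surface protein of the LY6/PLAUR family. Its counts were 9.78, 4.52, 6.55 and 8.00 in M1 to M4 and 56.1, 63.0, 27.1 and 25.9 in M5 to M8, low in all libraries, with each cKO library above each control (with the covariate, log2 fold change 2.30, SE 0.35, adjusted p = 0.0281). Under E2/MPA they were 6.87, 13.0, 6.91 and 4.40 in M9 to M12 and 66.6, 96.9, 78.6 and 47.3 in M13 to M16. Col4a3, like Col4a4 a collagen IV chain, had 10.8, 27.1, 69.6 and 27.2 in M1 to M4 and 2.24, 2.52, 3.39 and 0.837 in M5 to M8 (with the covariate, log2 fold change -3.26, SE 0.54, adjusted p = 0.0455). The M8 value of Col4a3 is 1 read. Col4a4 did not pass with the covariate (log2 fold change -1.60, SE 0.38, adjusted p = 0.208).

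**Figure D4:**
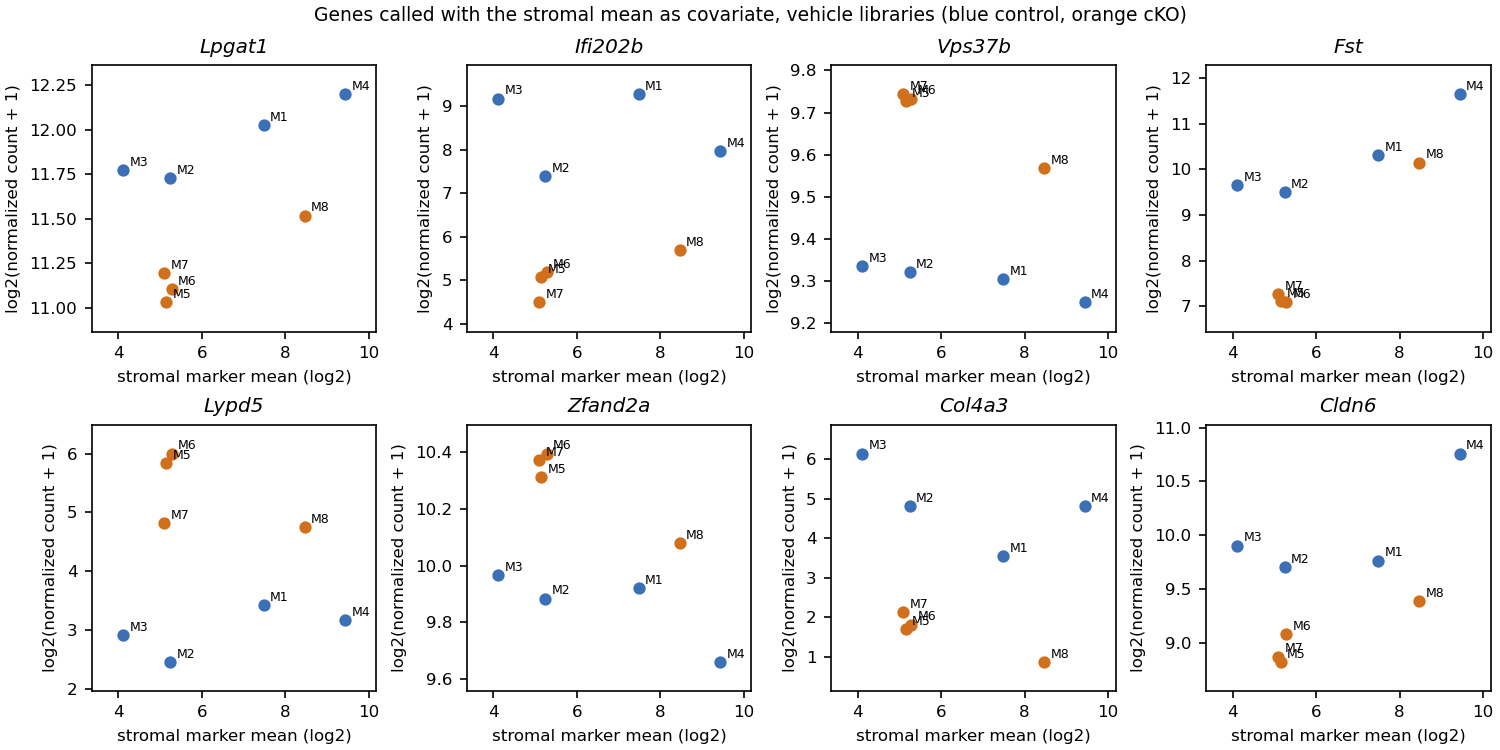
Each panel plots log2(normalized count + 1) of 1 of the 8 called genes against the stromal marker mean (log2) in the 8 vehicle libraries, control in blue and cKO in orange. M8, M1 and M4 lie at the right; the cKO points lie below the controls in Lpgat1, Ifi202b, Col4a3 and Cldn6 and above them in Vps37b, Lypd5 and Zfand2a, while in Fst M8 lies within the control range.

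Promoter sequence was at hand for 5 of the 8 called genes, from RefSeq (GRCm38.p6), as the 250 bases before the annotated start. The core motif bound by SMAD3 and SMAD4, CAGAC, and its reverse complement GTCTG were searched on both strands. At least 1 match stood in the window of 3 of the 5 genes (Cldn6, Lypd5 and Ifi202b) and in none of those of Lpgat1 and Zfand2a. Among 32851 promoter windows of the same length, 42.2% hold a match, so the matches are a description and mark no known site. The 3 windows with a match are printed 5′ to 3′ on the gene's strand, with the motif in capitals: 1 match in Cldn6 (chr17:23679115-23679364, plus strand), 1 in Lypd5 (chr7:24348946-24349195, plus strand) and 2 in Ifi202b (chr1:173982845-173983094, minus strand). The last sequence lies between the starts of Col4a4 and Col4a3 (chr1:82586850-82586920, minus strand), 71 bases that separate the heads of 2 genes that both had lower counts in cKO. It holds 0 matches.
Cldn6: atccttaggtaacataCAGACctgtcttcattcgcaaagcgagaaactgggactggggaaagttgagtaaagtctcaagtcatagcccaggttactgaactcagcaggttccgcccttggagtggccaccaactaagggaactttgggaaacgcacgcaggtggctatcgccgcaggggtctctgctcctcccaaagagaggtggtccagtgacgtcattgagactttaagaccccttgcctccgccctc
Lypd5: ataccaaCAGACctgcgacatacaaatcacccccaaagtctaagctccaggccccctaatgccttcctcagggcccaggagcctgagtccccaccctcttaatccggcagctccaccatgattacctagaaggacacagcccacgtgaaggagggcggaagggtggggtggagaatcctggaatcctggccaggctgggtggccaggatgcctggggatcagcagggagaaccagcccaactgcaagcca
Ifi202b: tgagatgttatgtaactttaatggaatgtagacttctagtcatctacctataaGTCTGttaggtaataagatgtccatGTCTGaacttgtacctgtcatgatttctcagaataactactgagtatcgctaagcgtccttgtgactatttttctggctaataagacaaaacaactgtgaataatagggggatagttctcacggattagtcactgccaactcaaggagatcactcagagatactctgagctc
Col4a4 to Col4a3: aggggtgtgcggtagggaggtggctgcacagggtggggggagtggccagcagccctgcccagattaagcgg

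Fixed lists of pathway genes were read against the shares over all genes. At an unadjusted p under 0.05 in limma these were 3.23% higher and 2.73% lower without the covariate, and 6.11% and 5.23% with it. Without overlap they were 1.64% higher and 1.37% lower, and list members without overlap were named by that rule. In the list of TGF-beta ligands, receptors and SMADs, 24 of 25 genes were tested and 0 were called in either fit. At an unadjusted p under 0.05, 1 was higher and 1 lower without the covariate, and 2 were higher and 4 lower with it. The median log2 fold change was -0.04 without and -0.02 with the covariate. Of the ligands, Tgfb1 had 1353, 976, 1080.1 and 2094 in M1 to M4 and 1234, 1283, 1243 and 1655 in M5 to M8 (log2 fold change 0.03, SE 0.21, adjusted p = 0.991). Tgfb2 spanned a wide range, 138, 3769, 3038 and 182 in M1 to M4 and 372, 627, 625 and 146 in M5 to M8, high in M2 and M3 and low in the stroma-rich libraries (log2 fold change -0.94, SE 1.30, adjusted p = 0.947). At an equal stromal level, Tgfb2 was 1 of the 4 lower genes at an unadjusted p under 0.05, without passing the threshold. Tgfb3 had a log2 fold change of 0.15 and Tgfbr1, the type I receptor, of -0.11, with groups that overlapped.

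The intracellular part of the pathway showed small differences. Smad3 had 4237, 2943, 3191 and 4035 in M1 to M4 and 4459.9, 4082, 4324 and 4249 in M5 to M8, with M1 and M4 the only controls near the cKO libraries (log2 fold change 0.26, SE 0.10, adjusted p = 0.816), and under E2/MPA it was higher in cKO without overlap (log2 fold change 0.34). Smad2 and Smad4 had log2 fold changes of 0.05 and 0.10. Smad7, the inhibitory SMAD that TGF-beta itself induces, had 700.1, 392, 509 and 1273 in M1 to M4 and 432, 315, 455 and 1108 in M5 to M8, highest in M4 and M8 (log2 fold change -0.34, SE 0.40, adjusted p = 0.941). Among genes that activate or present latent TGF-beta, 2 had negative log2 fold changes at an equal stromal level without passing, Itgb6 (log2 fold change -0.28, SE 0.12, adjusted p = 0.393) and Lrrc32 (log2 fold change -1.31, SE 0.43, adjusted p = 0.306).

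Among 25 SMAD target genes, all tested, 0 were called in either fit. Without the covariate 18 of 25 log2 fold changes were below 0, with a median of -0.14. With it 13 of 25 were below 0 and the median was -0.001. At an unadjusted p under 0.05 there was 1 higher and 2 lower gene without the covariate, and 3 higher and 4 lower with it. Pdgfb, a growth factor gene, had 600.3, 599, 849 and 1102 in M1 to M4 and 494, 493, 582 and 616 in M5 to M8 (log2 fold change -0.49, SE 0.18, adjusted p = 0.806). Mmp9, a matrix protease, had 467, 94.8, 134 and 2981 in M1 to M4 and 38.1, 19.3, 12.4 and 431 in M5 to M8 and followed the stromal mean (with the covariate, log2 fold change -2.40, SE 0.68, adjusted p = 0.245). Cdkn1a, the CDK inhibitor p21, went the other way with 3894, 4326, 4777 and 4117 in M1 to M4 and 5666, 5555, 5857 and 4181 in M5 to M8, where M8 alone lay among the controls (log2 fold change 0.30, SE 0.11, adjusted p = 0.801). Tgif1 and Junb also had positive values at an equal stromal level (0.19 and 0.28, adjusted p = 0.330 and 0.251). Pdgfb, Mmp9, Cdkn1a, Tgif1 and Junb were picked for print by their unadjusted p, after the values were seen.

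In the activin and inhibin list, 8 of 10 genes were tested and Fst was the 1 called, with the covariate. Fstl3, a relative of follistatin that also binds activin, had 126, 147, 186 and 186 in M1 to M4 and 123, 119, 99.4 and 115 in M5 to M8, every cKO library below every control (log2 fold change -0.48, SE 0.17, adjusted p = 0.801). Inhba, the activin A subunit, had 1301, 193, 156 and 3904 in M1 to M4 and 109, 101, 225 and 1682 in M5 to M8, following the stromal mean (with the covariate, log2 fold change -0.78, SE 0.32, adjusted p = 0.382). Inhbb, the activin B subunit, had 5753, 4332, 4726 and 3610.1 in M1 to M4 and 6493, 4454, 6008 and 6381 in M5 to M8 (log2 fold change 0.35, SE 0.21, adjusted p = 0.861). The list median was 0.06 without and 0.02 with the covariate. The BMP list had 16 of 20 genes tested, 0 called, and 2 higher and 0 lower at an unadjusted p under 0.05 (3 and 0 with the covariate), with medians of 0.05 and 0.11. Its log2 fold changes were 8 above and 8 below 0 without the covariate, and 10 and 6 with it. The members with the highest mean, Bmpr2, Bmpr1a and Smad5, had log2 fold changes of -0.17, -0.06 and -0.08, with groups that overlapped. Smad1, Id1 and Grem1 were picked for print by their unadjusted p, after the values were seen. Smad1 had 1069, 1010.3, 892 and 943 in M1 to M4 and 1070.4, 1113, 1043 and 1128 in M5 to M8 (log2 fold change 0.16, SE 0.07, adjusted p = 0.833). Id1, a target of BMP signalling, had 84.1, 70.0, 63.0 and 112 in M1 to M4 and 86.4, 113, 90.3 and 159 in M5 to M8 (with the covariate, log2 fold change 0.55, SE 0.18, adjusted p = 0.318). Grem1, a secreted BMP antagonist, had 18.6, 0, 0 and 25.6 in M1 to M4 and 18.0, 6.72, 31.6 and 172 in M5 to M8, with no read in M2 and M3 and its highest value in M8 (with the covariate, log2 fold change 3.13, SE 0.57, adjusted p = 0.0751).

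Antigen presentation was the list with the highest median of the pathway lists. Of 13 tested genes, 12 had log2 fold changes above 0 in each fit, against 50.2% of all genes with or without the covariate, with medians of 0.26 without and 0.27 with the covariate. None was called, and 6 were higher and 0 lower at an unadjusted p under 0.05 (8 and 0 with the covariate). Its summed signal was 0.149% to 0.194% of the total in control and 0.199% to 0.222% in cKO. B2m, the light chain of all MHC class I molecules, had 3735, 3362, 3861 and 3845 in M1 to M4 and 4133, 4475, 4721 and 4842 in M5 to M8 (log2 fold change 0.30, SE 0.07, adjusted p = 0.673). Nlrc5, the transcriptional activator of MHC class I genes, had 55.7, 48.5, 23.7 and 17.6 in M1 to M4 and 80.8, 74.8, 90.3 and 97.0 in M5 to M8, with M3 and M4 lowest and no overlap (log2 fold change 1.36, SE 0.40, adjusted p = 0.779). The heavy chain H2-D1 had 11742, 13815, 14383 and 9723 in M1 to M4 and 17150.5, 16621, 16235 and 13721 in M5 to M8, with M8 the only cKO library below the highest controls (log2 fold change 0.37, SE 0.12, adjusted p = 0.801), and H2-K1 had 6938, 9354, 9099 and 5631 in M1 to M4 and 10394, 10419.9, 9498 and 8162 in M5 to M8 (log2 fold change 0.33, SE 0.13, adjusted p = 0.824). H2-D1 and H2-K1 have near-identical relatives, and the counting may have divided reads among them, which makes their values uncertain. H2-T23 and Tap1, the peptide transporter, had log2 fold changes of 0.23 and 0.34. Under E2/MPA the list median was 0.19.

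Interferon-stimulated genes (18 tested, 0 called) had 1 gene higher and 0 lower at an unadjusted p under 0.05 in each fit and medians of 0.11 and 0.14. That gene was Mx1, an antiviral GTPase, with 808, 428, 537 and 533 in M1 to M4 and 834, 804, 879.7 and 731 in M5 to M8 (log2 fold change 0.53, SE 0.16, adjusted p = 0.779). M1 was the only control near the cKO range of Mx1. Chemokines and inflammatory genes (22 tested, 0 called) had medians of -0.20 and -0.12, with 1 higher and 0 lower at an unadjusted p under 0.05 (2 and 1 with the covariate). Leukocyte markers, which could bear on both lists, had 11 of 14 members tested, 0 called and medians of -1.04 and -0.78. Fits added after seeing the data took the leukocyte mean as a further covariate or left out M4 and M8. With the leukocyte mean, 12 of the 13 antigen presentation genes were above 0 (median 0.29), and 6 were higher at an unadjusted p under 0.05. Without M4 and M8, 12 of the 13 were above 0 in each fit (medians of 0.25 and 0.25). There 4 were higher at that p without the stromal covariate and 6 with it. The part of leukocytes in this pattern was not tested.

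Cell cycle genes mostly had values below control, a pattern that depended on M8 and on the covariates. Of 30 tested genes, 29 had a log2 fold change below 0 in each fit, against 49.8% of all genes without the covariate, and the medians were -0.34 and -0.32. None was called, and 0 were higher and 4 lower at an unadjusted p under 0.05 (0 and 5 with the covariate). The mean of log2(value + 1) over the list was 8.26, 8.24, 8.29 and 8.57 in M1 to M4 and 8.12, 8.35, 7.88 and 7.63 in M5 to M8, highest in M4 and lowest in M8, and M6 lay among the controls. In fits added after seeing the data, 18 of 30 genes were below 0 without M8 with the stromal covariate (median -0.04, 0 at an unadjusted p under 0.05), and 28 of 30 without M8 and without a covariate (median -0.18). Without M4 and M8 there were 21 of 30 (median -0.11) and, with the covariate, 18 (median -0.07). Leukocyte markers, also highest in M4 by their log mean, had medians of -1.04 and -0.78, and with their mean as a further covariate 20 of 30 cell cycle genes were below 0 (median -0.07). Without M4 alone the median was -0.23, and -0.26 with the covariate. Mki67, the proliferation antigen, had 882, 822, 912 and 979.7 in M1 to M4 and 720.3, 756, 611 and 339.6 in M5 to M8, with M8 by far the lowest (log2 fold change -0.63, SE 0.28, adjusted p = 0.833). Kif11, a mitotic kinesin, had 200.4, 201, 263 and 252 in M1 to M4 and 110.0, 189, 134 and 97.0 in M5 to M8 (log2 fold change -0.82, SE 0.29, adjusted p = 0.801). Ccna2 (cyclin A2) had 248, 243, 251 and 294 in M1 to M4 and 192, 239, 157 and 126 in M5 to M8 and Ccne2 (cyclin E2) 37.2, 44.0, 39.3 and 49.6 in M1 to M4 and 18.0, 37.0, 29.4 and 20.9 in M5 to M8. None of Mki67, Kif11, Ccna2 and Ccne2 overlapped, which makes 4 of the 30 genes lower without overlap, against 1.37% of all genes. M6 was the cKO library nearest to control in each of these 4 genes. Top2a, the topoisomerase of dividing cells, had 1116, 947, 991 and 1261 in M1 to M4 and 686, 1026, 661 and 605 in M5 to M8, where M6 lay among the controls (log2 fold change -0.56, SE 0.26, adjusted p = 0.833). Under E2/MPA the list median was -0.01, and the groups overlapped in the 5 genes just named.

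CDK inhibitors and p53 targets (21 tested, 0 called) had 2 genes higher and 0 lower at an unadjusted p under 0.05 (3 and 0 with the covariate), among them Cdkn1a, and medians of 0.11 and 0.09. Mitochondrially encoded genes had all 12 tested log2 fold changes below 0, with medians of -0.17 and -0.19 and no member at an unadjusted p under 0.05. Their share of the reads was 1.07% to 1.31% in control and 0.954% to 1.20% in cKO, and the groups overlapped.

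The medians of matrix gene lists shifted between the 2 fits. Without the covariate 16 of 17 collagen genes had log2 fold changes below 0, with a median of -0.71, and with it the median was -0.15. The stromal slope was called in 15 of the 17, and several of them, such as Col1a1, are themselves among the stromal markers. None of the 17 was called for genotype, and 1 was higher and 3 lower at an unadjusted p under 0.05 (1 and 6 with the covariate). Col4a3, which was called with the covariate (log2 fold change -3.26, limma adjusted p = 0.0455), and Col4a4 are described above and are not in this list. Some collagens of basement membrane and hemidesmosome are made by epithelial cells. Col4a6 had 39.1, 29.3, 51.6 and 91.2 in M1 to M4 and 26.9, 23.5, 16.9 and 22.6 in M5 to M8 (log2 fold change -1.09, SE 0.50, adjusted p = 0.833), and Col17a1, a hemidesmosome collagen, had 31.3, 71.1, 24.5 and 34.4 in M1 to M4 and 11.2, 10.9, 14.7 and 23.4 in M5 to M8 (log2 fold change -1.31, SE 0.56, adjusted p = 0.824). Both were low and did not overlap. Col18a1, another basement membrane collagen, had 1536, 922, 1217 and 1692 in M1 to M4 and 1646, 1508, 1698 and 1827 in M5 to M8 and a log2 fold change above 0 (log2 fold change 0.35, SE 0.15, adjusted p = 0.824).

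Laminins and integrins (20 tested, 0 called) had 1 higher and 0 lower at an unadjusted p under 0.05 (3 and 2 with the covariate) and medians of 0.04 and 0.05. Itgb4, the integrin of hemidesmosomes, had 6458, 6471, 6123 and 7045 in M1 to M4 and 7669.8, 8750.0, 7237 and 7571 in M5 to M8, every cKO library above every control (log2 fold change 0.26, SE 0.08, adjusted p = 0.801), and did not overlap under E2/MPA either (log2 fold change 0.42). Matrix proteases and their inhibitors (18 tested, 0 called) had medians of -0.37 and -0.11, with 0 higher and 3 lower at an unadjusted p under 0.05 (1 and 5 with the covariate). Mmp13, a collagenase, had 446, 349.9, 362 and 894 in M1 to M4 and 182, 270.5, 211 and 438 in M5 to M8 (log2 fold change -0.87, SE 0.32, adjusted p = 0.801). Mmp3, stromelysin, was lowest in M3 and highest in M8, with 36.2, 6.77, 0.818 and 134 in M1 to M4 and 21.3, 25.2, 30.5 and 466 in M5 to M8 (with the covariate, log2 fold change 2.38, SE 0.41, adjusted p = 0.0607). Genes of epithelial-mesenchymal transition (12 of 14 tested, 0 called) had 0 higher and 1 lower at an unadjusted p under 0.05 in each fit, and their median moved from -0.61 to -0.18 with the covariate. The 1 lower gene was Cdh2 (N-cadherin), with 87.0, 107, 118 and 251 in M1 to M4 and 23.6, 33.6, 23.7 and 109 in M5 to M8, in which M8 lay among the controls (log2 fold change -1.74, SE 0.61, adjusted p = 0.801).

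Hormone-related lists are read here without added hormone. Steroid receptors and coregulators (14 of 15 tested) had 0 called, 0 higher and 2 lower (0 and 3 with the covariate) at an unadjusted p under 0.05, and medians of -0.06 and -0.06. Besides Pgr, Fkbp4, the co-chaperone that progesterone receptor needs, had 5107, 6508, 6428 and 4766 in M1 to M4 and 4487, 4711, 5068 and 4287 in M5 to M8, with M4 the only control within the cKO range (log2 fold change -0.29, SE 0.10, adjusted p = 0.801). Progesterone-responsive epithelial genes (14 of 16 tested) had Fst as the 1 called with the covariate, 0 higher and 2 lower (2 and 2 with the covariate) at an unadjusted p under 0.05, and medians of -0.07 and 0.01. Lrp2, the endocytic receptor megalin, had 4.89, 175, 128 and 32.8 in M1 to M4 and 0, 6.72, 2.26 and 1.67 in M5 to M8, where M1 alone kept the groups from separating (log2 fold change -4.01, SE 0.99, adjusted p = 0.765), and under E2/MPA it did not overlap (log2 fold change -3.16). Ihh, the hedgehog ligand through which progesterone acts on stroma, had 50.8, 36.1, 36.8 and 50.4 in M1 to M4 and 35.9, 46.2, 28.2 and 49.4 in M5 to M8 (log2 fold change -0.14, SE 0.28, adjusted p = 0.974). Estrogen-responsive epithelial genes (19 of 20 tested) had 0 called, 1 higher and 1 lower (1 and 1 with the covariate) at an unadjusted p under 0.05, and medians of 0.04 and -0.003. Sprr2f, a strongly estrogen-induced gene, had no overlap, with 56310.5, 61533, 61483 and 61138 in M1 to M4 and 69017, 64587, 73321 and 65187 in M5 to M8 (log2 fold change 0.18, SE 0.11, adjusted p = 0.869).

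Lists of epithelial cell types had 0 called genes in either fit. Epithelial markers (20 tested) had 1 higher and 0 lower (5 and 0 with the covariate) at an unadjusted p under 0.05, and medians of 0.08 and 0.12. Grhl2, an epithelial transcription factor, had a log2 fold change of 0.21 (adjusted p = 0.824). Gland genes (8 of 14 tested) had 0 higher and 1 lower (0 and 1 with the covariate), with medians of -0.04 and -0.05. The lower gene was Aldh1a1, a retinoic acid synthesis enzyme, with 73.3, 457, 236 and 122 in M1 to M4 and 71.8, 181, 47.4 and 32.6 in M5 to M8 (log2 fold change -1.38, SE 0.60, adjusted p = 0.824). Luminal genes (12 tested) had 0 higher and 0 lower (1 and 1 with the covariate), with medians of -0.04 and -0.04. Ciliated cell genes (4 of 12 tested) had 0 higher and 0 lower (0 and 0 with the covariate), with medians of -0.39 and -0.46. Squamous genes (13 of 14 tested) had 2 higher and 0 lower (2 and 0 with the covariate), with medians of -0.35 and -0.22. Krt4, a keratin of stratified epithelium, had 337, 469.6, 478 and 159.9 in M1 to M4 and 861, 1229, 425 and 607 in M5 to M8 (log2 fold change 1.12, SE 0.38, adjusted p = 0.801), and Sprr1a, a cornified envelope gene, 7116, 7197, 10334 and 6415 in M1 to M4 and 13417, 16487, 11734 and 7585 in M5 to M8 (log2 fold change 0.63, SE 0.23, adjusted p = 0.801). Krt14, a basal keratin, had 3.91, 141, 2.45 and 6.40 in M1 to M4 and 2.24, 0.840, 0 and 1.67 in M5 to M8. M2 held nearly all the Krt14 signal, although by the values of all 8 libraries its groups did not overlap (log2 fold change -2.53, SE 1.38, adjusted p = 0.839).

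The remaining lists had 0 called genes in either fit, and their counts at an unadjusted p under 0.05 follow in the order higher and lower, without and then with the covariate. Wnt pathway genes had medians of -0.04 and -0.04 (22 tested) and counts of 2 and 0, then 2 and 2. Notch and hedgehog genes had -0.07 and -0.005 (16 tested) and 0 and 1, then 1 and 1. Growth factors and their receptors had 0.02 and 0.06 (27 tested) and 1 and 1, then 4 and 3. In cholesterol synthesis the medians were 0.004 and 0.03 (19 tested), with 0 genes in each count. Unfolded protein response genes had -0.05 and -0.11 (15 tested) and 0 and 0, then 0 and 1. Hypoxia and glycolysis genes had 0.03 and 0.04 (19 tested) and 0 and 0, then 1 and 1. Immediate early genes, which respond within minutes to stimulation, had 0.08 and 0.09 (20 tested) and 2 and 0, then 6 and 1. In that list Fosl1 had 154, 97.1, 101 and 124 in M1 to M4 and 151, 188, 169 and 138 in M5 to M8 (log2 fold change 0.45, SE 0.19, adjusted p = 0.824), and Fos had 4062, 2059, 2039 and 4822 in M1 to M4 and 3232, 2919, 2815 and 6090.2 in M5 to M8, highest in M4, M1 and M8 (with the covariate, log2 fold change 0.39, SE 0.09, adjusted p = 0.187).

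The lists of markers of other cells had no called member for genotype. Medians of the log2 fold change without and with the covariate were -0.62 and 0.08 (18 tested) for stromal markers, whose values define the covariate, -0.16 and 0.37 (7 tested) for stromal markers without matrix genes and -0.15 and 0.14 (7 tested) for smooth muscle. They were -0.17 and -0.24 (6 tested) for endothelium, 0.02 and 0.03 (5 tested) for mesothelium and -0.03 and -0.07 (2 tested) for nerve and glia. Of the 36 lists, whose 563 genes included 494 tested, the only called members were Fst in 2 lists.

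**Figure D5:**
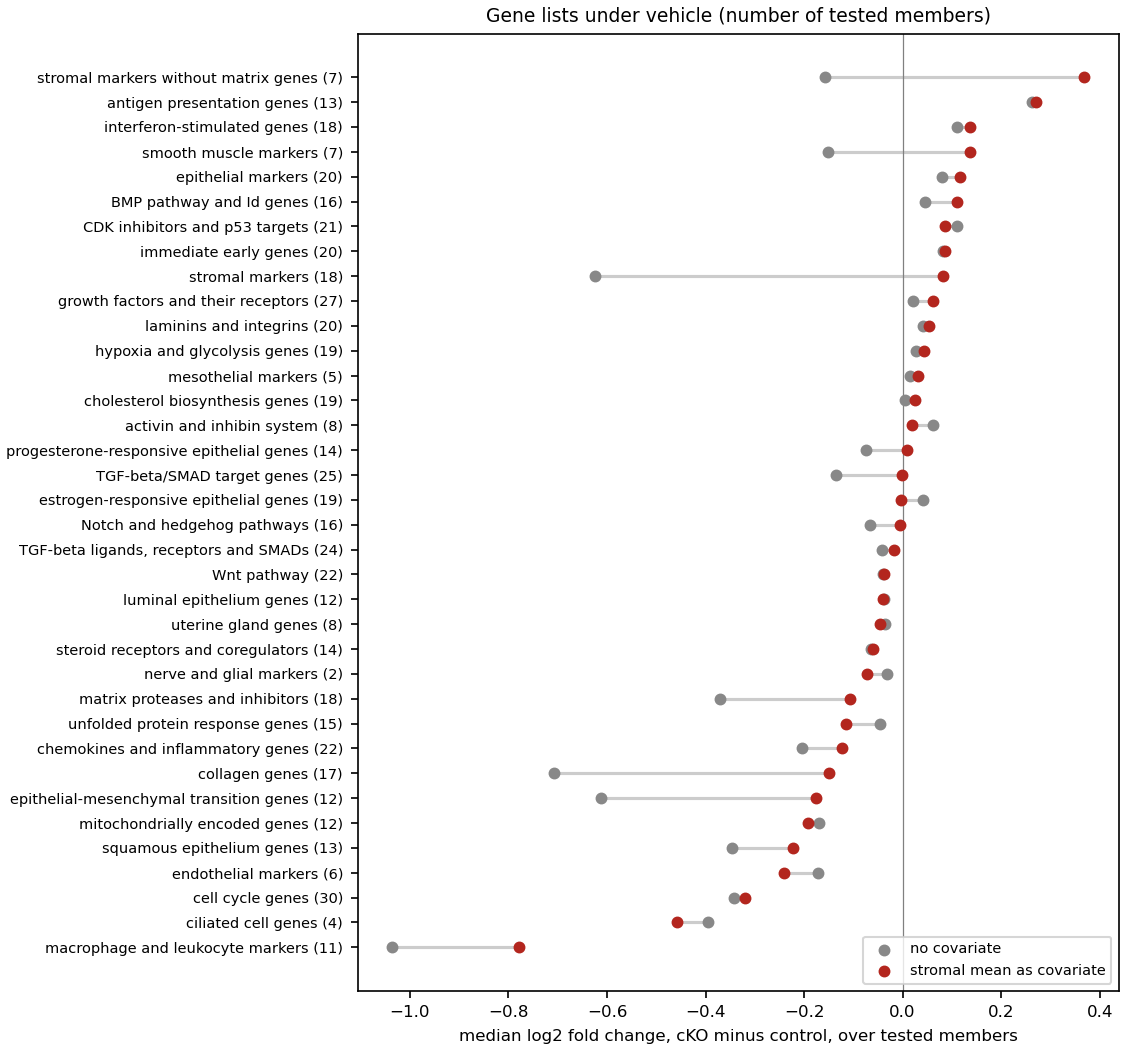
Each row is 1 gene list with its number of tested members, and the points are the median log2 fold change (cKO minus control) without a covariate (grey) and with the stromal mean as covariate (red). Antigen presentation genes have medians of 0.26 and 0.27 and cell cycle genes of -0.34 and -0.32 (-0.18 and -0.04 without M8), while the collagen median moves from -0.71 to -0.15.

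Other genes were chosen by the lowest p in the covariate fit. Epn3, an epsin of clathrin-mediated endocytosis, had 1329, 1524, 1592 and 1199 in M1 to M4 and 1937, 2157, 1758 and 1576 in M5 to M8 (with the covariate, log2 fold change 0.36, SE 0.07, adjusted p = 0.119). Ppp2r2b, a regulatory subunit of protein phosphatase 2A, had 108, 194, 231 and 72.8 in M1 to M4 and 64.0, 76.4, 75.7 and 56.9 in M5 to M8, with M2 and M3 highest (with the covariate, log2 fold change -1.17, SE 0.21, adjusted p = 0.0708). Neither passed.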

How the data were processed

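Gene expression was measured in organoids of mouse endometrial epithelium, with 16 libraries in 4 groups of 4 taken from the titles. Per the labels' protocols, Trizol and column purification gave the RNA, and TruSeq libraries were sequenced on a NovaSeq instrument. Per the submitters' processing notes, HISAT2, featureCounts, DESeq2 and the build GRCm39 were used, with no versions. With the strand setting not given in the sources used here, a gene and an overlapping antisense gene may share reads. The authors deposited 1 table of 23306 genes whose unit is a signal, normalized read counts scaled by 1 factor for each library. Undoing that scaling gave whole reads within 0.01 read for 100% of the values and recovered 14372111 to 20016836 reads per library. Symbols came from GENCODE M21 for 22484 genes, and the 822 others held 1.83% of the reads. Within the vehicle groups the closest pair of libraries (M5 and M7) had a chi-square per degree of freedom of 8.17 over genes, so no pair agreed within counting noise.

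A gene was tested if 4 or more libraries held a value of 10 or more (16509 genes), and 6797 were left out. log2(value + 1) was fitted with limma (version 3.58.1, R 4.3.3), with group means, a trended variance, and p-values adjusted by Benjamini-Hochberg. This scale understates changes of low genes. A further fit added the stromal mean. Adjusted p-values in the text are limma's. edgeR's quasi-likelihood test (version 4.0.16) and DESeq2 (version 1.42.0) were run on the recovered reads as alternatives. The other alternatives changed the pseudocount, filter, scaling, covariate, libraries, weights and block.

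Named genes are Tgfbr2, Pgr and Esr1, up to 10 per direction with the lowest p among those without overlap, 50 or more counts on average in the higher group and no predicted-model name, and those with the lowest p in the covariate fit by the same rules. Most members of the 36 gene lists are named because they passed, did not overlap or were among those with the highest mean. Others were singled out for their unadjusted p after the values were seen. Some members, among them Tgfb1, Tgfb3, Tgfbr1, Smad2, Smad4 and Smad7, are named outside these rules. The comparison, the stromal covariate, the lists and the genes were chosen with earlier results of these data known. The lists are therefore no independent evidence. Earlier results had also shown that M4, M8 and M1 were high in stromal transcripts. The values of 1 list member are not reported here. Exact permutation tests over libraries were two-sided. Promoter sequences are RefSeq's on GRCm38.p6, and coordinates are given on that build only for the stretches printed. The starts of Col4a4 and Col4a3 that bound the last stretch are GENCODE M21's. No other gene coordinates are given because the table's build differs.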

Additional observations from a re-analysis of the deposited data

Results flagged for a closer look

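In 74 groups of 4 vehicle libraries (the named and called genes and 7 marker lists, each in control and in cKO), 8 had 1 library far from the other 3. The measure is the gap from the most extreme library to its nearest neighbour, divided by the whole range of the group on the log2 scale, and chance alone passes the limit in about 1 in 20 groups. M8 was that library in 5 of the 8. In the stromal marker mean of the cKO group the ratio was 0.945, with M8 at 8.47 and the others at 5.09 to 5.28. The smooth muscle marker mean gave 0.943, with M8 at 5.58 and the others at 3.56 to 3.67. Fst gave 0.941 (M8 at 1130.2 normalized counts, the others at 134 to 152), Mmp3 gave 0.887 (M8 at 466, the others at 21.3 to 30.5), and Vps37b gave 0.914, here with M8 low at 758 and the others at 847 to 856. M4 was the distant control library in Pgr, with a ratio of 0.907 (3205 against 5663 to 6002), and in Fam83g, with 0.843 (497 against 436 to 445). In Pign the ratio was 0.941 for the control M2 (1026 against 889 to 897).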

How the results depend on the processing

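Without a covariate, the count of called genes (0) became 2 when only genes with a mean of at least 50 over the vehicle libraries were tested (Ifi202b and Vps37b), 14 with DESeq2, 5 with library weights, 1 with a random block joining libraries 8 numbers apart (Ifi202b), 4 without M1, M4 and M8, and, in a setting added after seeing the data, 14 without M4, M8, M12 and M16. Leaving out each of the 16 libraries in turn gave 0 to 2, the 2 being Hpcal4 and Slc26a9 without M1. With the stromal covariate, the count of 8 became 1 in the vehicle libraries alone (Lpgat1). In settings added after seeing the data it became 3 with leukocyte markers as a further covariate (Pgr, Lpgat1 and Ifi202b) and 180 without M1, M4 and M8, all 8 genes among them. Leaving out each library gave 1 to 32: 32 without M1, 1 without M3, M5, M6 or M7, 2 without M2, 4 without M4 and 5 without M10 or M11. Lpgat1 was called in all 16 of these, and each of the other 7 was lost in at least 1. Changing to other covariate markers, the random block, edgeR, the pseudocount or the filter gave 7 to 11 genes. The stromal mean difference ranged from -1.40 to 0.38 as single libraries were left out, and it was positive only without M4. Of the values of named genes under the alternatives, 956 without and 780 with the covariate, 0 changed sign. No paired analysis was possible because the vehicle groups share no replicate numbers in the labels. The causes of these changes were not tested. The 4 libraries a group limit precision, as do the low counts of Col4a3 and Lypd5.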
